A study of Macaca mulatta with 449 samples.

Results

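The cerebellum was compared with the neocortex in the brains of 8 rhesus macaques (Macaca mulatta), a non-human primate widely used as a model of the human brain. Ribosomal-RNA-depleted RNA-seq libraries were made from small tissue pieces of dissected brain sub-regions, and 408 libraries from 51 sub-regions of the 8 animals were in the count table. Of these, 16 were cerebellar, namely the 8 samples labelled cerebellar cortex (CBC) and the 8 labelled cerebellum vermis (CBV), which are all samples of these sub-regions. The comparison set them against the libraries from 31 neocortical sub-regions of each of the same animals. Groups of 2 animals each made up the cohort, young males and females of 3.2 to 5 years and mid-aged males and females of 9.8 to 10 years, so that 4 animals were male, 4 female, 4 young and 4 mid-aged. No treatment or genetic change is named for any animal, and each animal gave both structures. Counts of the CBC and CBV libraries were summed within each animal, as were those of its 31 neocortex libraries, which gave 8 cerebellar and 8 neocortical sums with the animal as the replicate.

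The cerebellar cortex is built from few cell types in a repeated circuit. Granule cells, the most numerous neurons of the brain, are small glutamatergic neurons that receive mossy fibre input and send parallel fibres to Purkinje cells. Purkinje cells are large GABAergic neurons and the sole output of the cerebellar cortex, while Golgi, basket and stellate cells are its inhibitory interneurons, unipolar brush cells are excitatory interneurons enriched in vestibular lobules of the vermis, and Bergmann glia are its radial astrocytes. The neocortex arises from the telencephalon and holds layered glutamatergic projection neurons with several classes of GABAergic interneurons, so that its neurons and those of the cerebellum descend from different embryonic territories and use different transcription factors. Because whole tissue was sequenced, a lower number of cells of a type and less RNA per cell cannot be told apart in any result given here.

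The cerebellar libraries held 9341544 to 15755102 counts (median 11282779) and the neocortex libraries 7784678 to 31083490 (median 10635486), and the sums per animal held 20667906 to 26945215 cerebellar and 297336760 to 428597814 neocortical counts. Levels are given as CPM, the counts of a gene relative to the TMM-scaled library size, either of single libraries or, where a mean ± SD is printed, of the 8 sums per animal. Total counts did not differ detectably between the structures (exact sign-flip permutation test over the 8 animals, two-sided, p = 0.688). The 100 genes with the highest counts took 15.1% ± 0.507 of the cerebellar and 18.5% ± 0.77 of the neocortical counts (SD, n = 8), lower in the cerebellum in 8 of 8 animals, with p = 0.00781 by the same exact test, the smallest it can give. The CBC library of animal 4 stood apart, with 4184 genes more than 2-fold from the median of the other CBC libraries, against 152 to 349 genes in the other 15 cerebellar libraries. It correlated at r = 0.939 with the mean CBC profile of the other animals, against 0.989 to 0.993 for the other cerebellar libraries, each across genes, which are not independent replicates. In the neocortex 4 libraries exceeded 2000 such genes, 3 of them from animal 4 and 1 from animal 8. Leaving out these 5 libraries, an alternative added after the data were seen, changed the number of called genes in 3 lists, which are named where they occur.

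The cerebellar samples, which were set by their region labels, were checked with 3 marker genes of granule cells, and these matched the labels in every library. GABRA6, the granule cell GABA-A receptor alpha-6 subunit, was measured at 695 to 1206 CPM (median 920) in the 16 cerebellar libraries and at 0.0943 to 5.3 CPM (median 0.823) in the neocortex libraries. CBLN3, a cerebellin secreted by granule cells, was at 467 to 1107 CPM (median 629) in the cerebellum and 0.839 to 7.19 CPM (median 2.65) in the neocortex. FAT2, an atypical cadherin of granule cell parallel fibres, was at 457 to 1015 CPM (median 766) against 0.364 to 5.03 CPM (median 2.35). For each of the 3 genes the lowest cerebellar library lay above the highest neocortex library. The fitted differences were log2FC 10.07 ± 0.14 (SE) for GABRA6, 7.89 ± 0.18 for CBLN3 and 8.23 ± 0.20 for FAT2, with FDR values of 6.06e-15, 2.48e-13 and 4.95e-13 in edgeR's quasi-likelihood test.

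**Figure D1:**
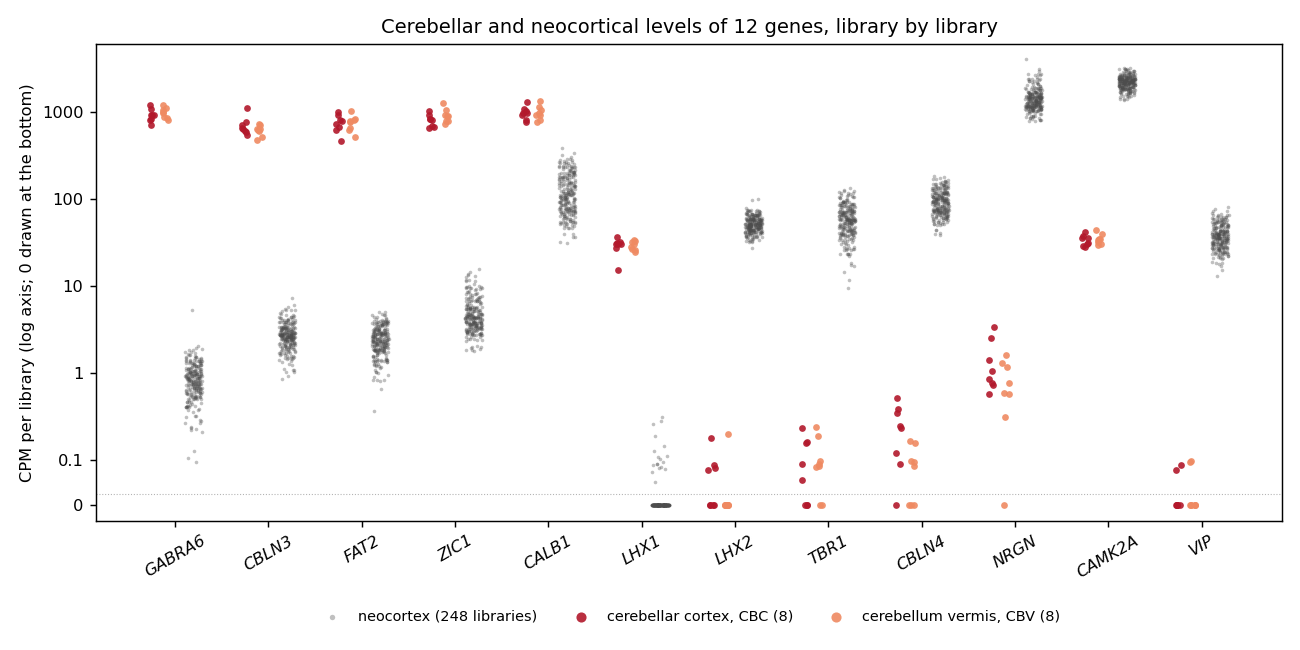
Level of 12 genes in every library, in CPM on a log axis with values of 0 drawn at the bottom; red points are the 8 CBC, orange points the 8 CBV and grey points the neocortex libraries (31 per animal). The cerebellar and neocortical points of each of the 12 genes do not overlap, with GABRA6, CBLN3, FAT2, ZIC1, CALB1 and LHX1 higher and LHX2, TBR1, CBLN4, NRGN, CAMK2A and VIP lower in the cerebellum.

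Of 18372 genes tested, 1858 (10.1%) were higher and 3025 (16.5%) lower in the cerebellum at FDR < 0.05 with an absolute log2FC above 1, that is, a fold above 2, with the animal as a block. At FDR < 0.05 alone, whatever the fold, 13145 genes (71.5%) differed. In what follows higher and lower mean past both thresholds, and the 2 shares above are the background for the counts of each gene list. The lists were chosen with earlier results of these data or the fit known, and some genes are on several lists. Their counts are therefore descriptions and not independent tests. The differences were often large, since 609 of the higher genes exceeded a log2FC of 2 and 150 exceeded 4, while 1556 of the lower genes were below a log2FC of -2 and 593 below -4. Over all genes tested the median log2FC was -0.04. In single libraries, the 16 cerebellar values lay above every neocortical value for 538 genes (2.93%) and below all of them for 820 (4.46%), and without the 5 libraries that stood apart these numbers were 786 and 1025.

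**Figure D2:**
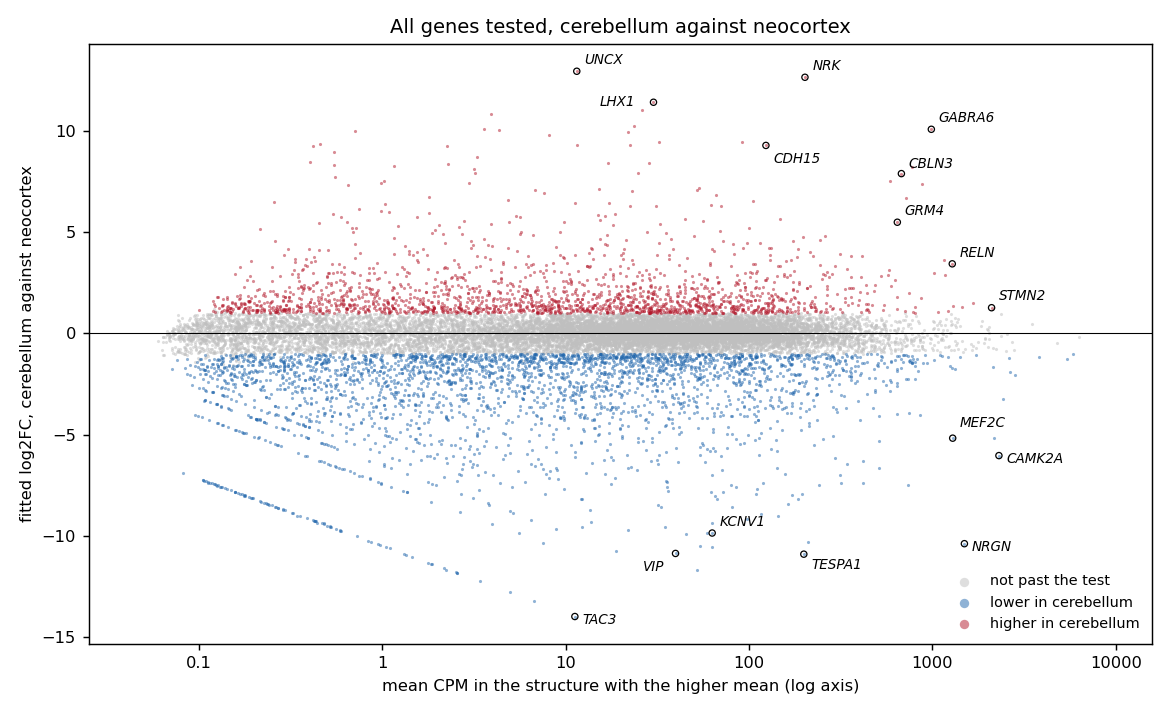
Fitted log2FC of each of the 18372 genes tested against its mean CPM in the structure where that mean was higher (log axis), with the 1858 genes higher in the cerebellum in red, the 3025 lower in blue and the rest in grey; circles mark named genes. The thin diagonal lines of blue points at low levels are genes with no or few cerebellar counts, whose fitted value depends on the prior count and is not a measured fold.

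The genes with the largest fitted differences among those higher in the cerebellum were UNCX, NRK, LHX1, TFAP2B, SKOR1, IRX5, GABRA6, OTX2, SLC6A5 and CRTAM, and UNCX, LHX1, IRX5 and OTX2 are homeobox genes. UNCX, a homeobox factor, was at 5.65 to 19.5 CPM (median 11.5) in the cerebellar libraries, and all neocortex libraries together held 2 counts of it. The ratio of its levels was 15500 (4280 to 128000), where the interval is the exact 95% interval for counting error. NRK, a protein kinase gene, was at 141 to 275 CPM (median 184) in the cerebellum and at 0 to 0.372 CPM (median 0) in the neocortex (log2FC 12.64 ± 0.18 SE). CRTAM, best known as a receptor of T and natural killer cells, was at 62.9 to 119.8 CPM (median 83.1) against 0 to 0.716 CPM (median 0.101) (log2FC 9.45 ± 0.13). SKOR1, a transcriptional corepressor, was at 16.5 to 29.2 CPM (median 22.6) against 0 to 0.336 CPM (median 0) (log2FC 10.22 ± 0.22). All of these except OTX2 had cerebellar and neocortical libraries that did not overlap.

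Among genes lower in the cerebellum the largest differences belonged to TAC3, MCHR2, DSG3, SPINK5, FREM3, GSG1L2, SSTR5, TERT, PF4V1 and TESPA1. No cerebellar library held a count of TAC3, MCHR2, DSG3, SPINK5, GSG1L2, SSTR5, TERT or PF4V1, so that their folds are lower bounds set at 3 counts over the group. TAC3, which encodes the peptide neurokinin B, was at 4.51 to 22.9 CPM (median 10.4) in the neocortex and at least 717-fold lower in the cerebellum. MCHR2, a receptor for melanin-concentrating hormone, was at least 324-fold lower, and SSTR5, a somatostatin receptor, at least 114-fold lower. For DSG3, a desmosomal cadherin, and SPINK5, a serine protease inhibitor, the bounds were 165-fold and 164-fold, and for GSG1L2, TERT and PF4V1 they were 125-fold, 93.4-fold and 85.6-fold. FREM3, an extracellular matrix protein gene, was at 0.233 to 160.5 CPM (median 44.8) in the neocortex and had 3 cerebellar counts, a ratio of 3390 (1160 to 16400). TESPA1 was at 71.8 to 322 CPM (median 189) in the neocortex and 0 to 0.441 CPM (median 0.0788) in the cerebellum (log2FC -10.90 ± 0.20). The cerebellar values of TAC3, FREM3, SSTR5 and TESPA1 lay below every neocortex library, while for MCHR2, DSG3, SPINK5, GSG1L2, TERT and PF4V1 some neocortex libraries were also at 0.

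In absolute abundance, the largest differences in mean level towards the cerebellum were those of STMN2, RELN, ITPR1, ETV1 and TIAM1. STMN2, a microtubule regulator of growing neurites, was at 2103 ± 399 CPM in the cerebellum and 873 ± 143 CPM in the neocortex (SD, n = 8, as in all such pairs below; log2FC 1.26 ± 0.06). RELN, the secreted glycoprotein reelin that granule cells make, was at 1284 ± 240.4 CPM in the cerebellum and 120 ± 28.8 CPM in the neocortex (log2FC 3.43 ± 0.12). TIAM1, an activator of the GTPase Rac, was at 1172 ± 151 CPM in the cerebellum and 159 ± 13.9 CPM in the neocortex (log2FC 2.88 ± 0.06). Towards the neocortex the largest differences in mean level were those of CAMK2A, CHN1, KIF5A, SPARCL1 and ENC1. CAMK2A, the alpha subunit of the calcium/calmodulin-dependent kinase of glutamatergic synapses, was at 35.2 ± 3.87 CPM in the cerebellum and 2306 ± 189 CPM in the neocortex (log2FC -6.04 ± 0.07). CHN1, a Rac GTPase-activating protein, was at 257 ± 50.8 CPM in the cerebellum and 2428 ± 236 CPM in the neocortex (log2FC -3.26 ± 0.07), and KIF5A, a neuronal kinesin, at 684 ± 72.8 CPM in the cerebellum and 2826 ± 243 CPM in the neocortex (log2FC -2.05 ± 0.05). ENC1, an actin-binding protein of the nervous system, was at 60.7 ± 14.7 CPM in the cerebellum and 2177 ± 290.2 CPM in the neocortex (log2FC -5.19 ± 0.16), and SPARCL1, a secreted protein that astrocytes make, at 1712 ± 352 CPM in the cerebellum and 3837 ± 431 CPM in the neocortex (log2FC -1.18 ± 0.06). Single libraries of ITPR1 and SPARCL1 overlapped between the structures, and those of the other 8 genes did not.

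Granule cell genes were higher in the cerebellum almost throughout, on a list that holds the 3 markers GABRA6, CBLN3 and FAT2. Here 19 of the 23 listed genes were tested, with 4 lacking a matching identifier. Of those tested 17 were higher, 0 lower and 2 did not pass the test, with a median log2FC of 3.75. Transcription factors of the granule lineage were among them. ZIC1, a zinc finger factor of granule cell precursors, was at 649 to 1245 CPM (median 821) in the cerebellar libraries and 1.78 to 15.4 CPM (median 4.27) in the neocortex (log2FC 7.39 ± 0.12), and its neighbour ZIC4 was at 457 to 745 CPM (median 548) against 0.982 to 8.71 CPM (median 2.85) (log2FC 7.51 ± 0.12). NEUROD1, which drives granule cell differentiation, was at 358 ± 63 CPM in the cerebellum and 25.4 ± 4.92 CPM in the neocortex (log2FC 3.82 ± 0.09). ETV1, an ETS factor of maturing granule cells, was at 1163 ± 199 CPM in the cerebellum and 94.6 ± 7.96 CPM in the neocortex (log2FC 3.61 ± 0.09). PAX6, which both granule cells and dorsal telencephalic progenitors use, differed less, at 335 ± 26.6 CPM in the cerebellum and 74 ± 6.6 CPM in the neocortex (log2FC 2.18 ± 0.06). Both structures express RBFOX3, the neuronal nuclear antigen NeuN, and CNTN2, an axonal adhesion protein, and these were the genes that did not pass the fold threshold, with log2FC 0.39 ± 0.05 and 0.34 ± 0.06. CBLN1, the cerebellin that bridges parallel fibres and Purkinje cells, was at 552 to 841 CPM (median 691) in the cerebellum and 0.517 to 18.1 CPM (median 6.53) in the neocortex (log2FC 6.66 ± 0.06).

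**Figure D3:**
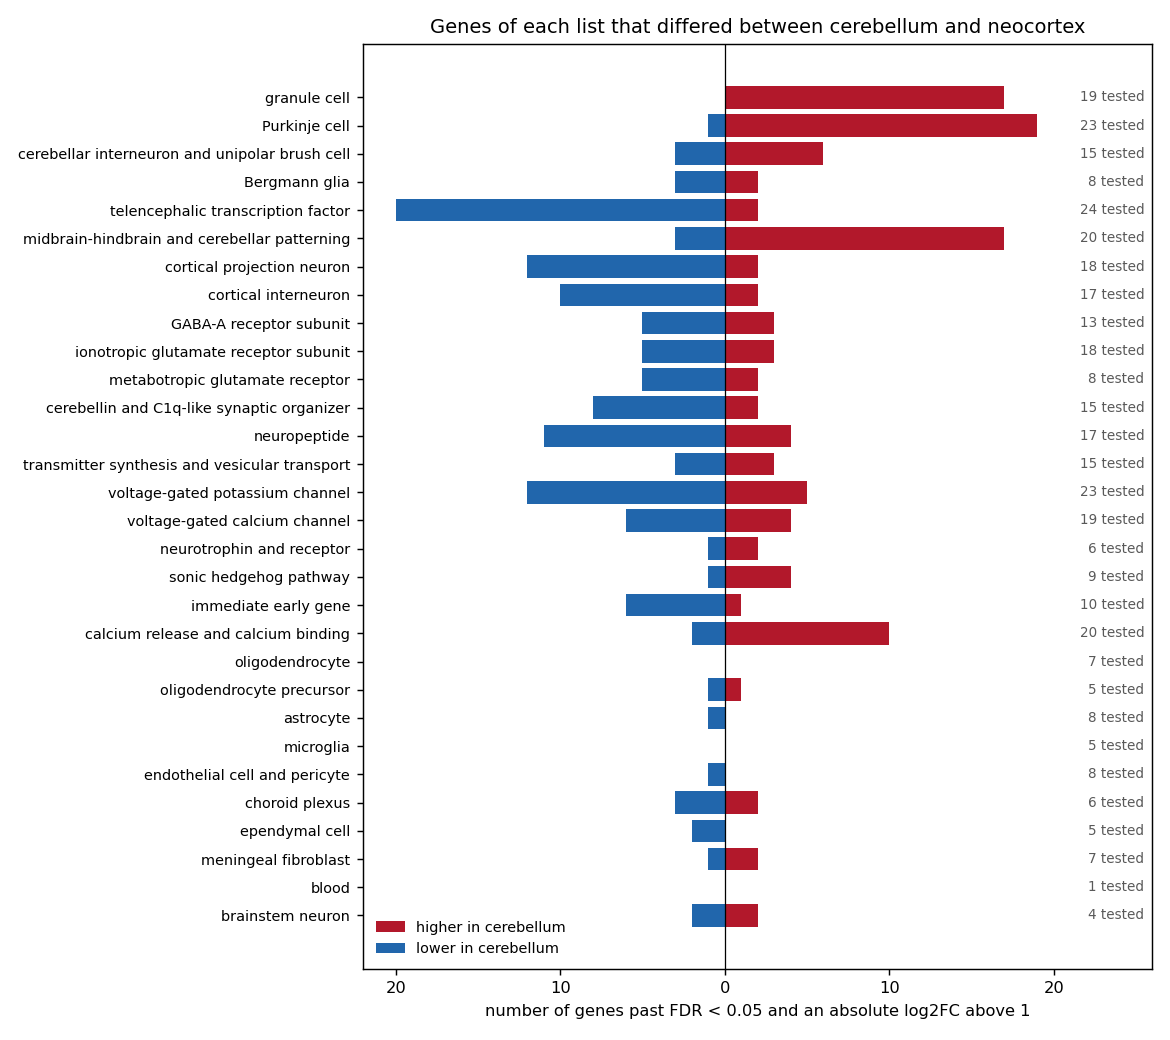
Number of genes of each list that were higher (red, to the right) or lower (blue, to the left) in the cerebellum at FDR < 0.05 and an absolute log2FC above 1, with the number tested at the right. Granule cell, Purkinje cell and midbrain-hindbrain patterning genes lie mostly to the right, with 17, 19 and 17 higher, and telencephalic factors mostly to the left, with 20 lower, while the oligodendrocyte, microglia and blood lists hold no call.

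Purkinje cell genes were also higher in most cases. For this list 23 of the 25 listed genes were tested, with 2 lacking a matching identifier. In this list 19 were higher, 1 lower and 3 did not pass the test (median log2FC 2.23). Several encode calcium signalling proteins of Purkinje cells. CALB1, the calcium buffer calbindin, was at 756 to 1322 CPM (median 968) in the cerebellar libraries and 31 to 386 CPM (median 109) in the neocortex (log2FC 2.97 ± 0.11). CA8, a carbonic anhydrase-related protein that binds the inositol trisphosphate receptor, was at 163 to 334 CPM (median 232) against 2.01 to 23.8 CPM (median 9.24) (log2FC 4.60 ± 0.09). The receptor itself, ITPR1, was at 1675 ± 363 CPM in the cerebellum and 594 ± 115 CPM in the neocortex (log2FC 1.48 ± 0.09), and PLCB4, the phospholipase upstream of it, at 487 ± 44.3 CPM in the cerebellum and 93.3 ± 11.2 CPM in the neocortex (log2FC 2.39 ± 0.07). Regulators that mark Purkinje cells had near-zero levels in the neocortex. LHX1, a LIM homeodomain factor, was at 15.1 to 35.9 CPM (median 30.3) against 0 to 0.313 CPM (median 0) (log2FC 11.41 ± 0.30), and SKOR2, a corepressor needed for Purkinje cell differentiation, was at 2.13 to 4.38 CPM (median 2.93) against 0 to 0.312 CPM (median 0) (log2FC 8.12 ± 0.30). HOMER3, a postsynaptic scaffold, had log2FC 4.22 ± 0.12, SLC1A6, the Purkinje cell glutamate transporter EAAT4, log2FC 3.38 ± 0.06, and GRID2IP, a scaffold protein of Purkinje cell synapses, log2FC 3.97 ± 0.11. The exception was FOXP2, a forkhead factor that Purkinje cells share with deep cortical layers, at 6.41 ± 0.487 CPM in the cerebellum and 30.7 ± 5.5 CPM in the neocortex (log2FC -2.25 ± 0.08). ALDOC, the zebrin II antigen that marks Purkinje cell stripes and that astrocytes also make, was at 2364 ± 268 CPM in the cerebellum and 1230.3 ± 42.6 CPM in the neocortex with log2FC 0.94 ± 0.06, under the fold threshold, as was the phospholipase gene PLCB3 (log2FC 0.68 ± 0.08).

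The list for cerebellar interneurons and unipolar brush cells was split. On it 15 of the 18 listed genes were tested, with 3 lacking a matching identifier. Of the tested genes 6 were higher, 3 lower and 6 did not pass the test, with a median log2FC of -0.16. The members that were higher included factors of the inhibitory lineage of the hindbrain. TFAP2B was at 11.2 to 35.4 CPM (median 25.4) in the cerebellum and 0 to 0.177 CPM (median 0) in the neocortex (log2FC 11.04 ± 0.24), TFAP2A had log2FC 5.86 ± 0.12, and PAX2, which marks GABAergic interneuron precursors, was at 3.31 ± 0.794 CPM in the cerebellum and 0.248 ± 0.107 CPM in the neocortex (log2FC 3.82 ± 0.27). SLC6A5, the neuronal glycine transporter of Golgi cells, was at 0.602 to 12.1 CPM (median 8.02) against 0 to 0.128 CPM (median 0) (log2FC 9.81 ± 0.28). GABA synthesis genes, which both structures need, did not pass the fold threshold. GAD1 was at 415 ± 69.6 CPM in the cerebellum and 459 ± 22.9 CPM in the neocortex (log2FC -0.16 ± 0.07), GAD2 had log2FC -0.66 ± 0.06, and the vesicular GABA transporter SLC32A1 had log2FC -0.06 ± 0.08. PLCB1, a phospholipase of forebrain neurons, was lower, at 168 ± 26.9 CPM in the cerebellum and 802 ± 78.3 CPM in the neocortex (log2FC -2.26 ± 0.09), as were the receptor gene GRM2 and the neurexophilin NXPH1.

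Bergmann glia genes did not move together. For them 8 of the 11 listed genes were tested, with 3 lacking a matching identifier. Of them 2 were higher, 3 lower and 3 did not pass the test. GDF10, a growth factor of Bergmann glia, was at 10.1 ± 3.88 CPM in the cerebellum and 0.873 ± 0.201 CPM in the neocortex (log2FC 3.49 ± 0.19), and GRIA4, an AMPA receptor subunit that they carry, at 366 ± 37.5 CPM in the cerebellum and 129 ± 7.76 CPM in the neocortex. The glutamate transporter SLC1A3 was at 1993 ± 245 CPM in the cerebellum and 1728 ± 155 CPM in the neocortex (log2FC 0.20 ± 0.05), under the threshold. HOPX, which in the primate cortex marks outer radial glia and astrocytes, was lower, at 27.1 ± 8.69 CPM in the cerebellum and 336 ± 48.5 CPM in the neocortex (log2FC -3.67 ± 0.12), and so were TNC, the matrix protein tenascin C (log2FC -4.69 ± 0.31), and SLC6A11, an astrocytic GABA transporter (log2FC -1.87 ± 0.12).

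Transcription factors of the telencephalon were lower with 2 exceptions among those called. On this list 24 of the 30 listed genes were tested, with 6 lacking a matching identifier. Among those tested 2 were higher, 20 lower and 2 did not pass the test (median log2FC -4.48 with NKX2-1, which had no cerebellar count, set at its bound). LHX2, a cortical selector gene, was at 27.1 to 98.8 CPM (median 50.4) in the neocortex and 0 to 0.196 CPM (median 0) in the cerebellum (log2FC -10.51 ± 0.23). TBR1, a factor of early-born cortical neurons, was at 9.54 to 134 CPM (median 56.9) against 0 to 0.241 CPM (median 0.0868) (log2FC -9.38 ± 0.14). In both genes no neocortex library fell as low as the highest cerebellar library. FEZF2, which specifies subcortical projection neurons, had 3 cerebellar counts in all, a ratio of 790 (270 to 3830), and SP8, of interneurons from the caudal ganglionic eminence, had 2, a ratio of 621 (172 to 5130). MEF2C, an abundant activity-regulated factor, was at 35.6 ± 2.92 CPM in the cerebellum and 1291 ± 128 CPM in the neocortex (log2FC -5.18 ± 0.07). The interneuron factor LHX6 had log2FC -6.23 ± 0.18. NEUROD2, a helix-loop-helix factor that granule cells share with cortical neurons, was higher at 93.3 ± 17.1 CPM in the cerebellum and 40.8 ± 5.27 CPM in the neocortex (log2FC 1.18 ± 0.09), and ZBTB18, a zinc finger repressor of both, was higher at 808 ± 71.3 CPM in the cerebellum and 325 ± 43.8 CPM in the neocortex (log2FC 1.32 ± 0.06). CUX1 and NR2F1, with log2FC 0.41 ± 0.08 and -0.47 ± 0.07, stayed under the fold threshold.

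Patterning genes of the midbrain-hindbrain region and cerebellum were mostly higher. Here 20 of the 34 listed genes were tested, with 10 lacking a matching identifier and 4 under the filter on low counts. In this list 17 were higher, 3 lower and 0 did not pass the test (median log2FC 5.07). It shares ZIC1, ZIC2 and ZIC4 with the granule cell list and LHX1 with the Purkinje cell list. PAX2 and LMX1A are also on the list for cerebellar interneurons and unipolar brush cells. The Iroquois homeobox genes were close to 0 in the neocortex, with IRX5 at 1.67 to 5.59 CPM (median 3.15) against 0 to 0.109 CPM (median 0) (log2FC 10.08 ± 0.33), IRX2 at 1.94 to 4.94 CPM (median 3.02) against 0 to 0.195 CPM (median 0) (log2FC 8.70 ± 0.36) and IRX1 at 1.67 to 8.35 CPM (median 2.58) against 0 to 0.317 CPM (median 0) (log2FC 7.90 ± 0.29). CNPY1, an FGF signalling modulator of the midbrain-hindbrain boundary, was at 51.5 to 72.9 CPM (median 64.5) against 0 to 2.1 CPM (median 0.478) (log2FC 6.81 ± 0.16). MEIS1, a homeobox factor of granule cells, was at 80 ± 14.1 CPM in the cerebellum and 8.06 ± 1.3 CPM in the neocortex (log2FC 3.31 ± 0.07). MEIS2, LHX9 and WNT1 went the other way, with log2FC -1.47 ± 0.10 for MEIS2, -4.18 ± 0.35 for LHX9, and for WNT1, which had 2 cerebellar counts, a ratio of 175 (48.5 to 1450).

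The hindbrain samples (medulla oblongata and pons, 16 libraries of the same animals) place these genes beside the neighbouring territory. Over the 15490 genes tested there, 2225 (14.4%) were higher and 2831 (18.3%) lower in the cerebellum. Of 17 patterning genes tested, 8 were higher and 4 lower in the cerebellum than in the hindbrain. The ZIC genes stayed higher, with ZIC1 at 903 ± 138 CPM in the cerebellum and 99.4 ± 20.5 CPM in the hindbrain (log2FC 3.20 ± 0.10) and ZIC5 at 39.7 ± 8.13 CPM in the cerebellum and 3.64 ± 0.787 CPM in the hindbrain (log2FC 3.45 ± 0.08), and so did LHX1 (log2FC 3.45 ± 0.24), OTX2 (log2FC 3.33 ± 0.23) and CNPY1 (log2FC 4.54 ± 0.09). For OTX2 this held for the sum of CBC and CBV. Single libraries, scaled apart from these sums, had OTX2 means of 2.29 CPM in CBC and 43.4 CPM in CBV, beside 2.27 ± 0.977 CPM in the hindbrain sums. IRX1 and IRX2, higher in the cerebellum than in the neocortex, were lower than in the hindbrain, at 3.28 ± 1.37 CPM in the cerebellum and 19 ± 3.08 CPM in the hindbrain for IRX1 (log2FC -2.59 ± 0.13) and 3.38 ± 0.956 CPM in the cerebellum and 23.7 ± 3.3 CPM in the hindbrain for IRX2 (log2FC -2.84 ± 0.11). For IRX5 the difference was log2FC -0.16 ± 0.16 and did not pass the test. The comparisons with the neocortex and with the hindbrain share the cerebellar samples.

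HOX genes, which set positional identity behind the midbrain-hindbrain region, were near 0 in the cerebellum. Of the 21 HOX genes listed, 7 had a matching identifier and none passed the count filter against the neocortex. Against the hindbrain 4 were tested and 4 were lower in the cerebellum. HOXA4, for example, had 4 counts in the 16 cerebellar libraries together, 2 in all neocortex libraries and 2330 in the 16 hindbrain libraries (log2FC -9.02 ± 0.32 against the hindbrain). Markers of brainstem neurons were checked because the pieces could hold adjoining tissue. The intermediate filament gene PRPH had 8 cerebellar and 2207 hindbrain counts (log2FC -8.09 ± 0.34). SLC6A4, the serotonin transporter, had 78 and 1027 counts and was lower (log2FC -3.10 ± 0.69). TPH2, the enzyme of serotonin synthesis, had 257 and 890 counts and did not pass the test against the hindbrain (log2FC -1.02 ± 0.66, FDR = 0.17, edgeR). In single libraries the mean of TPH2 was 0.637 CPM in CBC and 2.03 CPM in CBV, with CBV higher in 8 of 8 animals. For SLC6A4 the means were 0.336 CPM in CBC and 0.432 CPM in CBV, with CBV higher in 5 of 8 animals. The part of adjoining tissue was not tested. The cholinergic genes CHAT and SLC18A3 had 14 and 12 cerebellar counts. Summed over the 4 brainstem genes tested against the neocortex, the level was 0.973 to 2.69 CPM in the 8 cerebellar sums and 0.991 to 2.17 CPM in the 8 neocortex sums, with TPH2 and SLC6A4 higher and DBH and TH lower. Against the neocortex TPH2 was at 1.32 ± 0.453 CPM in the cerebellum and 0.142 ± 0.0116 CPM in the neocortex (log2FC 3.16 ± 0.24).

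Genes of cortical projection neurons were mostly lower in the cerebellum. On this list 18 of the 20 listed genes were tested, with 2 lacking a matching identifier. Of the tested genes 2 were higher, 12 lower and 4 did not pass the test (median log2FC -4.51 with THEMIS at its bound). NRGN, neurogranin, a calmodulin-binding protein of forebrain dendrites, was at 779.6 to 3996 CPM (median 1356) in the neocortex and 0 to 3.35 CPM (median 0.809) in the cerebellum (log2FC -10.39 ± 0.20). RASGRF2, a calcium-regulated exchange factor of upper layers, was at 5.12 ± 0.638 CPM in the cerebellum and 509 ± 65.1 CPM in the neocortex (log2FC -6.63 ± 0.11). HTR2A, the serotonin receptor of cortical pyramidal cells, had log2FC -7.41 ± 0.17, CRYM log2FC -5.20 ± 0.20 and the protocadherin PCDH8 log2FC -4.79 ± 0.15. THEMIS, of deep-layer neurons, had no cerebellar count and was at least 84.9-fold lower. SLC17A7, the vesicular glutamate transporter shared by granule cells and cortical neurons, was at 455 ± 75.5 CPM in the cerebellum and 810 ± 74.4 CPM in the neocortex (log2FC -0.84 ± 0.06), under the fold threshold. ETV1 and NR4A2 were the members that were higher, and granule cells are known to express ETV1.

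Genes of cortical interneurons and neuropeptides followed the same direction in part. The lists share SST, VIP, NPY, CCK, TAC3, CRH, TAC1 and CORT, so that their counts are not separate. Of interneuron genes 17 of the 20 listed genes were tested, with 3 lacking a matching identifier. Of them 2 were higher, 10 lower and 5 did not pass the test (median log2FC -2.21). For neuropeptides and secreted relatives 17 of the 20 listed genes were tested, with 3 lacking a matching identifier. Among those tested 4 were higher, 11 lower and 2 did not pass the test (median log2FC -4.98). VIP, vasoactive intestinal peptide, was at 13 to 80.2 CPM (median 36.2) in the neocortex and 0 to 0.0979 CPM (median 0) in the cerebellum (log2FC -10.87 ± 0.19). SST, somatostatin, was at 27.3 to 379 CPM (median 95.1) against 0 to 1.38 CPM (median 0.339) (log2FC -7.93 ± 0.18), and CCK, cholecystokinin, at 79.9 to 493 CPM (median 169) against 0.155 to 1.89 CPM (median 0.472) (log2FC -8.20 ± 0.16). Corticotropin-releasing hormone, CRH, had log2FC -8.50 ± 0.23, neuropeptide Y, NPY, log2FC -6.24 ± 0.28, and the opioid precursor PDYN log2FC -5.80 ± 0.34. For VIP, SST, CCK, CRH, NPY and PDYN no neocortex library was as low as the highest cerebellar library. PVALB and CALB2, calcium-binding proteins of cortical interneurons that cerebellar neurons also make, were higher, PVALB at 265 ± 70 CPM in the cerebellum and 51.6 ± 6.26 CPM in the neocortex (log2FC 2.33 ± 0.07) and CALB2 at 15.6 ± 3.31 CPM in the cerebellum and 3.78 ± 0.912 CPM in the neocortex (log2FC 2.06 ± 0.16). Among secreted neuronal proteins NXPH3, a neurexophilin, was higher at 111 ± 7.5 CPM in the cerebellum and 13.2 ± 2.09 CPM in the neocortex (log2FC 3.08 ± 0.08), and NMB, neuromedin B, at 3.11 ± 1.24 CPM in the cerebellum and 1.05 ± 0.502 CPM in the neocortex (log2FC 1.58 ± 0.17).

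The subunits of the GABA-A receptor, the chloride channel of fast inhibition, differed in opposite directions. Of the family 13 of the 16 listed genes were tested, with 2 lacking a matching identifier and 1 under the filter on low counts. In this list 3 were higher, 5 lower and 5 did not pass the test. Besides GABRA6, the delta subunit gene GABRD, which joins alpha-6 in extrasynaptic receptors of granule cells, was higher at 229 ± 62.5 CPM in the cerebellum and 89.3 ± 8.7 CPM in the neocortex (log2FC 1.32 ± 0.09), as was GABRE at 11.8 ± 4.99 CPM in the cerebellum and 3.54 ± 1.18 CPM in the neocortex (log2FC 1.71 ± 0.18). The alpha subunit genes of forebrain receptors were lower. GABRA5, the alpha-5 subunit, was at 29.3 to 453 CPM (median 107) in the neocortex and 7.54 to 20.2 CPM (median 12.5) in the cerebellum (log2FC -3.28 ± 0.12), and GABRA4 had log2FC -3.48 ± 0.16, GABRA2 log2FC -1.91 ± 0.09 and GABRA3 log2FC -1.81 ± 0.12. GABRB2, a beta subunit gene, had log2FC 0.38 ± 0.12 and did not pass the fold threshold. GABRG3 passed it narrowly (log2FC -1.06 ± 0.14).

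Glutamate receptors also differed in both directions. Of ionotropic subunits 18 of the 18 listed genes were tested. Of the tested genes 3 were higher, 5 lower and 10 did not pass the test. GRIN2C, the NMDA receptor subunit of mature granule cells, was at 128 to 392 CPM (median 159.6) in the cerebellum and 4.67 to 27.2 CPM (median 12.3) in the neocortex (log2FC 3.75 ± 0.12). The NMDA subunit genes GRIN2A and GRIN2B were lower, with log2FC -1.23 ± 0.17 for GRIN2A and -2.28 ± 0.23 for GRIN2B. The obligatory subunit GRIN1 had log2FC -0.75 ± 0.05 and did not pass the fold threshold. Of the AMPA subunits, GRIA4 was higher, GRIA3 lower (log2FC -1.66 ± 0.11), and GRIA1 and GRIA2 were under the threshold with log2FC -0.27 ± 0.07 and -0.61 ± 0.06. Of the metabotropic receptors 8 of the 8 listed genes were tested. Of them 2 were higher, 5 lower and 1 did not pass the test. GRM4, the presynaptic receptor of parallel fibres, was at 465 to 1344 CPM (median 564) in the cerebellum and 6.17 to 42.8 CPM (median 11.9) in the neocortex (log2FC 5.49 ± 0.08). GRM5, a postsynaptic receptor of forebrain neurons, went the other way at 13.2 ± 4.39 CPM in the cerebellum and 63.3 ± 20.9 CPM in the neocortex (log2FC -2.27 ± 0.15), and so did GRM7 (log2FC -2.16 ± 0.07), GRM2 (log2FC -1.28 ± 0.09), GRM3 (log2FC -1.18 ± 0.06) and GRM6 (log2FC -2.84 ± 0.42).

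**Figure D4:**
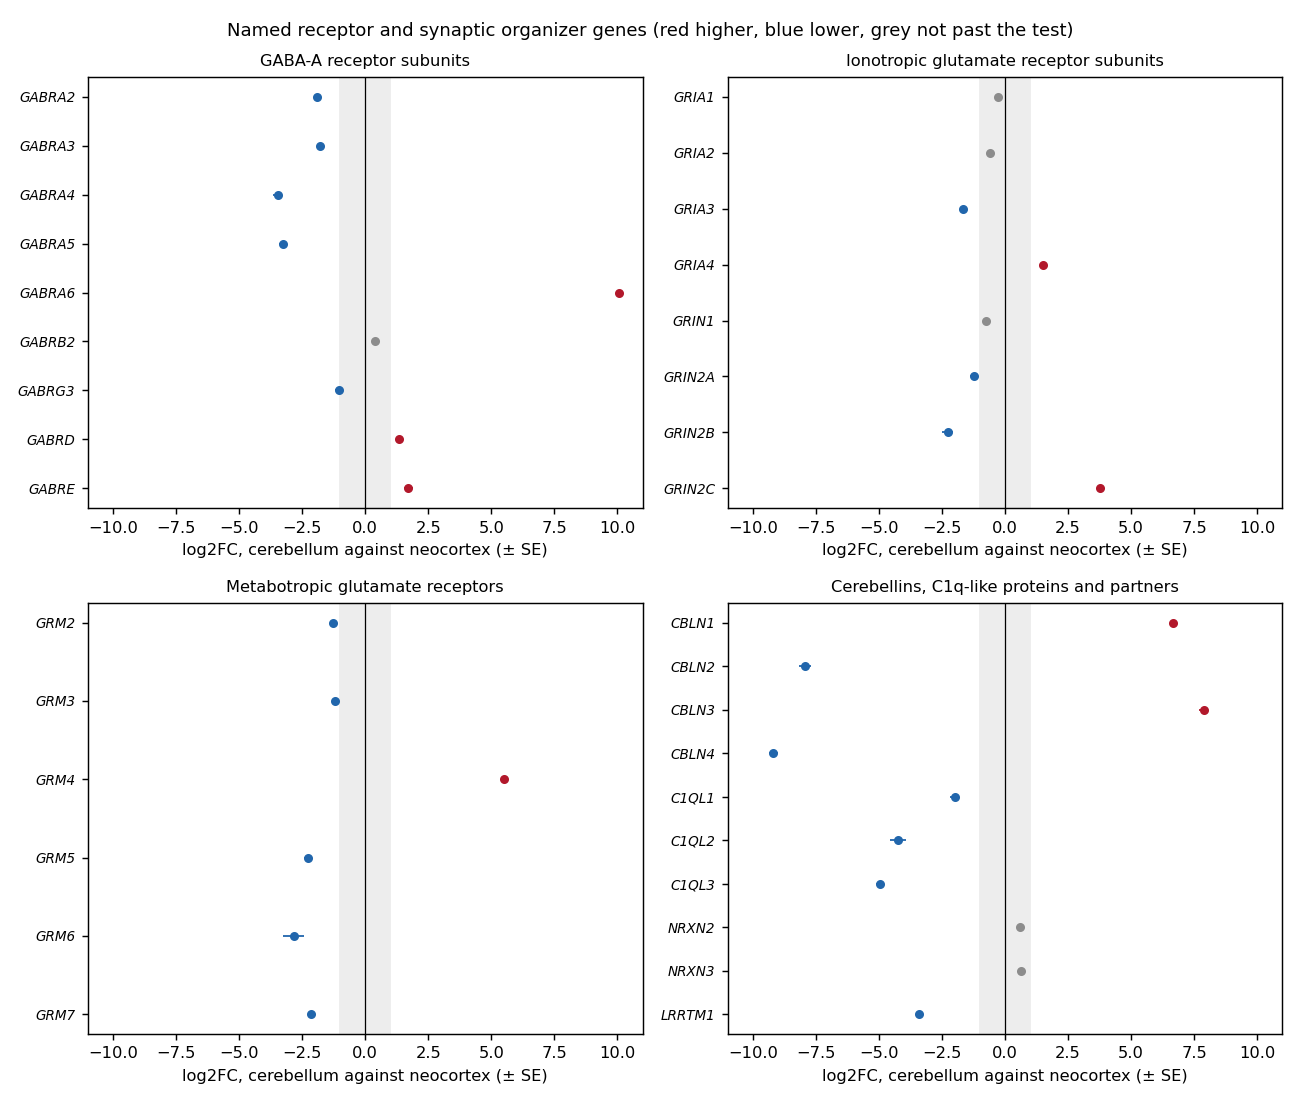
Fitted log2FC between cerebellum and neocortex (x axis; bars are SE over 8 animals, often smaller than the point) for the named genes of 4 families; red members were higher, blue lower and grey not past the test, and the shaded band marks log2FC between -1 and 1. In each family 1 or more genes lie far to the right (GABRA6, GRIN2C, GRM4, CBLN1 and CBLN3) while others lie to the left.

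Cerebellins and their C1q-like relatives, secreted proteins that link neurexins on the axon to receptors on the dendrite, split between the structures. Of this family and its partners 15 of the 16 listed genes were tested, with 1 lacking a matching identifier. Among those tested 2 were higher, 8 lower and 5 did not pass the test. CBLN1 and CBLN3 were higher. CBLN2 was at 35.6 to 452 CPM (median 164) in the neocortex and 0 to 2.74 CPM (median 0.564) in the cerebellum (log2FC -7.95 ± 0.23), and CBLN4 at 38.1 to 184 CPM (median 91.9) against 0 to 0.512 CPM (median 0.108) (log2FC -9.19 ± 0.19). No library of the 2 structures overlapped for any of the 4 cerebellins. C1QL3 (log2FC -4.94 ± 0.16), C1QL2 (log2FC -4.24 ± 0.33) and C1QL1 (log2FC -1.99 ± 0.18) were lower, and so was the postsynaptic LRRTM1 (log2FC -3.40 ± 0.11). The neurexin genes NRXN2 and NRXN3 had log2FC 0.60 ± 0.05 and 0.64 ± 0.09, under the fold threshold.

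Genes for transmitter synthesis and transport gave no common direction. Of these 15 of the 15 listed genes were tested. In this list 3 were higher, 3 lower and 9 did not pass the test (median log2FC -0.24). SLC1A2, the astrocytic glutamate transporter GLT-1, was at 37.8 ± 11.4 CPM in the cerebellum and 280.1 ± 116 CPM in the neocortex (log2FC -2.87 ± 0.16), whereas SLC1A6 was higher at 243 ± 59.1 CPM in the cerebellum and 23.3 ± 5.16 CPM in the neocortex. SLC17A6, the second vesicular glutamate transporter, was at 39 ± 12.7 CPM in the cerebellum and 88 ± 13.6 CPM in the neocortex (log2FC -1.21 ± 0.15).

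Voltage-gated channels also differed member by member. Of potassium channel genes 23 of the 31 listed genes were tested, with 8 lacking a matching identifier. Of the tested genes 5 were higher, 12 lower and 6 did not pass the test (median log2FC -1.10). Within the fast-spiking Kv3 family, KCNC1, which granule and Purkinje cells use, was higher (log2FC 1.18 ± 0.07) and KCNC2 was lower, at 178 to 585 CPM (median 410.1) in the neocortex and 2.58 to 8.19 CPM (median 5.66) in the cerebellum (log2FC -6.31 ± 0.13), while KCNC4 had log2FC -0.14 ± 0.07. The A-type channel genes KCND2 and KCND1 were higher, with KCND2 at 174 ± 32.7 CPM in the cerebellum and 37.6 ± 6.67 CPM in the neocortex (log2FC 2.20 ± 0.08) and KCND1 at 52.8 ± 9.03 CPM in the cerebellum and 14.7 ± 1.28 CPM in the neocortex (log2FC 1.84 ± 0.08). Of the M-current genes, KCNQ5 was at 4.21 ± 1.33 CPM in the cerebellum and 293 ± 14 CPM in the neocortex (log2FC -6.15 ± 0.14) and KCNQ3 had log2FC -2.68 ± 0.12. The modulatory subunits KCNV1 (log2FC -9.86 ± 0.21) and KCNS1 (log2FC -7.01 ± 0.15) and the ether-a-go-go channel KCNH3 (log2FC -5.07 ± 0.15) were lower, and none of their libraries overlapped. Of calcium channel genes 19 of the 21 listed genes were tested, with 2 lacking a matching identifier. Of them 4 were higher, 6 lower and 9 did not pass the test (median log2FC -0.43). CACNA1A, the P/Q-type channel of Purkinje and granule cells, was at 568 to 972 CPM (median 694) in the cerebellum and 118 to 293 CPM (median 179.7) in the neocortex (log2FC 1.99 ± 0.07). Its partners CACNA2D2 (log2FC 1.29 ± 0.05) and CACNB4 (log2FC 1.26 ± 0.11) were higher too, as was the T-type channel CACNA1G (log2FC 1.04 ± 0.06), while CACNA1C, the L-type channel, was at 2.67 ± 0.835 CPM in the cerebellum and 33.5 ± 6.21 CPM in the neocortex (log2FC -3.65 ± 0.17) and CACNA1H, another T-type channel, at 3.5 ± 2.06 CPM in the cerebellum and 42.7 ± 7.2 CPM in the neocortex (log2FC -3.70 ± 0.20). CACNG3, an AMPA receptor accessory subunit, was at 10.8 ± 1.94 CPM in the cerebellum and 189 ± 21.8 CPM in the neocortex (log2FC -4.14 ± 0.07).

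For calcium release and binding 20 of the 21 listed genes were tested, with 1 lacking a matching identifier. Among those tested 10 were higher, 2 lower and 8 did not pass the test (median log2FC 1.02). This list shares CALB1, CALB2, CA8, CAMK2A, ITPR1, PCP4 and PVALB with the cell type lists. ATP2A3, a calcium pump of the endoplasmic reticulum, was at 68.5 to 169 CPM (median 92.6) in the cerebellum and 0.595 to 6.01 CPM (median 2.51) in the neocortex (log2FC 5.20 ± 0.10), and the ryanodine receptors differed, with RYR1 higher (log2FC 1.15 ± 0.08) and RYR3 lower (log2FC -1.71 ± 0.22). CAMK4, a kinase of granule cells, was at 97.1 ± 18.6 CPM in the cerebellum and 33.3 ± 7.21 CPM in the neocortex (log2FC 1.54 ± 0.10), opposite to CAMK2A.

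Trophic and developmental signalling genes were mixed. Of neurotrophin genes 6 of the 9 listed genes were tested, with 1 lacking a matching identifier and 2 under the filter on low counts. In this list 2 were higher, 1 lower and 3 did not pass the test. NTF3, neurotrophin-3, which granule cells make, was at 5.33 to 29.1 CPM (median 15.5) in the cerebellum and 0 to 1.03 CPM (median 0.28) in the neocortex (log2FC 5.59 ± 0.22), and NGFR, the p75 receptor, at 9.8 to 32.3 CPM (median 14) against 0 to 3.4 CPM (median 0.441) (log2FC 4.87 ± 0.20). NTRK2, the receptor TrkB, was lower at 12.6 ± 3.28 CPM in the cerebellum and 25.3 ± 6.73 CPM in the neocortex (log2FC -1.01 ± 0.13), but its log2FC no longer passed the fold threshold without the CBC library of animal 4 (-0.92), without all 5 libraries that stood apart (-0.94) or without animal 4, 6, 7, 10 or 11. Of sonic hedgehog pathway genes 9 of the 12 listed genes were tested, with 3 lacking a matching identifier. Of the tested genes 4 were higher, 1 lower and 4 did not pass the test. Sonic hedgehog from Purkinje cells drives granule cell precursors and maintains Bergmann glia. PTCH1, its receptor and target, was at 250.4 to 532 CPM (median 380.1) against 48.4 to 153 CPM (median 90.7) (log2FC 2.02 ± 0.07), the target factor GLI1 at 10.9 to 36.1 CPM (median 13.9) against 0.55 to 5.94 CPM (median 2.72) (log2FC 2.45 ± 0.16), and the coreceptors BOC and CDON had log2FC 2.31 ± 0.16 and 2.13 ± 0.14. GLI3, the repressor of the pathway, was lower at 2.0 ± 0.807 CPM in the cerebellum and 5.5 ± 1.47 CPM in the neocortex (log2FC -1.50 ± 0.16).

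Immediate early genes, which neuronal activity induces within minutes, were mostly lower. Of these 10 of the 17 listed genes were tested, with 7 lacking a matching identifier. Of them 1 was higher, 6 lower and 3 did not pass the test (median log2FC -1.40). ARC, which regulates AMPA receptor trafficking, was at 24.4 to 196 CPM (median 73.8) in the neocortex and 0.0817 to 0.946 CPM (median 0.374) in the cerebellum (log2FC -7.48 ± 0.14), and EGR2 at 5.43 to 61.3 CPM (median 21.2) against 0 to 1.06 CPM (median 0.17) (log2FC -6.75 ± 0.27), with no overlap of libraries in either. NPAS4 (log2FC -2.54 ± 0.20) and JUNB (log2FC -1.50 ± 0.08) were lower by less, and FOS, at 31.5 ± 26 CPM in the cerebellum and 47.1 ± 23 CPM in the neocortex (log2FC -0.79 ± 0.15), did not pass the fold threshold. Summed over the list the level was 89.9 to 388 CPM in the 8 cerebellar sums and 236 to 532 CPM in the 8 neocortex sums. The exception was NR4A2 (log2FC 1.31 ± 0.19), also a marker of some deep-layer cortical neurons.

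Markers of glia, vessels, meninges, ventricle and blood were checked because the pieces could also hold these cells. Of 46 such genes tested on 8 lists, 9 (19.6%) were called, 3 higher and 6 lower, beside 26.6% of all genes tested. Of oligodendrocyte genes 7 of the 10 listed genes were tested, with 3 lacking a matching identifier, and 0 were higher and 0 lower, with log2FC between -0.04 and 0.63 and a summed level of 2978 to 5211 CPM in the 8 cerebellar sums and 2628 to 3452 CPM in the 8 neocortex sums. Microglial genes gave 0 and 0 of 5 tested, with a summed level of 42.2 to 92.3 CPM in the 8 cerebellar sums and 67.8 to 105 CPM in the 8 neocortex sums. Among 8 astrocyte genes tested SLC1A2 was lower and none was higher, with a summed level of 1250 to 1991 CPM in the 8 cerebellar sums and 1425 to 2033 CPM in the 8 neocortex sums, and GFAP, the glial filament protein, was at 491 ± 145 CPM in the cerebellum and 361 ± 80.1 CPM in the neocortex (log2FC 0.42 ± 0.10). Among 5 oligodendrocyte precursor genes tested VCAN was higher and CSPG4 lower, and the summed level was 141 to 183 CPM in the 8 cerebellar sums and 204 to 263 CPM in the 8 neocortex sums. Endothelial and pericyte genes summed to 205 to 277 CPM in the 8 cerebellar sums and 266 to 394 CPM in the 8 neocortex sums, with RGS5 lower of 8 tested (log2FC -1.01 ± 0.07), a call lost without the CBC library of animal 4 (log2FC -0.93), without all 5 libraries that stood apart (-0.95) or without animal 2, 7, 8, 10 or 11. Of 7 meningeal genes tested COL1A1 and COL1A2 were higher and SLC22A6 lower, with a summed level of 24.4 to 93.8 CPM in the 8 cerebellar sums and 40.4 to 72.5 CPM in the 8 neocortex sums. Of 5 ependymal genes tested 2 were lower, RSPH1 and SPAG17, with a summed level of 23.4 to 42.6 CPM in the 8 cerebellar sums and 42.5 to 57.9 CPM in the 8 neocortex sums. HBA, the haemoglobin gene tested for blood, was at 2.69 to 5.81 CPM in the cerebellar and 3.22 to 10.1 CPM in the neocortex sums. The part that these cells have in the neuronal differences was not tested.

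Choroid plexus genes, which could enter the vermis samples from the fourth ventricle, were checked because OTX2 belongs to both this list and the patterning list. Of the 9 listed genes 6 were tested, with 3 lacking a matching identifier, namely TTR, KCNJ13 and AQP1. Of the 6 tested, OTX2 and SLC4A5 were higher, and CLIC6 (log2FC -3.80 ± 0.43), KL (log2FC -4.10 ± 0.18) and FOLR1 (log2FC -1.26 ± 0.49) were lower, the last at 0.0961 ± 0.0922 CPM in the cerebellum and 0.227 ± 0.0967 CPM in the neocortex. SLC4A5, a bicarbonate transporter, was at 5.51 to 27 CPM (median 20.2) in the cerebellum and 0.416 to 5.09 CPM (median 1.7) in the neocortex (log2FC 3.35 ± 0.16). In CBC and CBV libraries the means were 18.9 and 19.2 CPM for SLC4A5, 0.373 and 0.357 CPM for CLIC6 and 0.518 and 0.447 CPM for KL. For FOLR1 they were 0.0781 and 0.1055 CPM, and for PRLR 0.233 and 0.271 CPM. OTX2 is given with the comparison of CBC and CBV, and the part of choroid plexus tissue was not tested.

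CBC and CBV were compared library by library and within animals. Library by library, the 8 CBV values lay above all 8 CBC values for 6 of 18372 genes (0.0327%) and below all of them for 10 (0.0544%), and without the CBC library of animal 4 for 9 (0.049%) and 25 (0.136%). OTX2 was one of the 6, at 1.0 to 5.56 CPM in the 8 CBC libraries and 24.2 to 57.4 CPM in the 8 CBV libraries, and the highest neocortex library was at 1.04 CPM, so that every CBV library lay above the neocortex and the lowest CBC library did not. The others, singled out like those that follow after their values were seen, were CDH8, a classical cadherin, at 0.43 to 2.54 CPM in the 8 CBC libraries and 8.42 to 35.5 CPM in the 8 CBV libraries, and SOWAHC, FRMD6, FOXO1 and ENSMMUG00000042253, which has no symbol. CDH8 was lower in the cerebellum than in the neocortex as a whole (log2FC -3.34 ± 0.19). Among the 10 genes lower in CBV were the neurofilament genes NEFM (381 ± 16.1 CPM in CBC and 265 ± 33.7 CPM in CBV, SD, n = 8) and NEFH (212 ± 39.6 CPM in CBC and 130.4 ± 18.9 CPM in CBV), the serotonin receptor gene HTR1E (6.21 ± 1.2 CPM in CBC and 2.5 ± 0.672 CPM in CBV), the corticotropin-releasing hormone receptor CRHR1 (71.3 ± 25.4 CPM in CBC and 51.8 ± 3.17 CPM in CBV) and KCNN2 (39.8 ± 5.27 CPM in CBC and 28 ± 2.47 CPM in CBV), a calcium-activated potassium channel. Within animals, CBV was above CBC in 8 of 8 for 501 genes (2.73%) and below it in 8 of 8 for 430 (2.34%). RELN, at 1117 ± 327 CPM in CBC and 1375 ± 176 CPM in CBV, was higher in CBV in each animal and CHN1, at 282 ± 54.9 CPM in CBC and 206 ± 46 CPM in CBV, lower in each, although their libraries overlapped. GABRA6, at 922 ± 160.1 CPM in CBC and 978 ± 138 CPM in CBV, CALB1, at 972 ± 161 CPM in CBC and 982 ± 185 CPM in CBV, and SLC6A5, at 7.86 ± 3.26 CPM in CBC and 7.69 ± 2.45 CPM in CBV, had overlapping values in CBC and CBV. These values describe the libraries and were not tested.

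Whether the difference between the structures depended on age stage or sex was asked with interaction terms over the same 8 animals. For age stage, 2 of 18372 genes (0.0109%) passed the threshold, against 12 with DESeq2. At an unadjusted p under 0.05 there were 807. DCDC1, a doublecortin domain gene, was at 10.9 to 17.7 CPM in the cerebellar sums of the 4 young animals and 1.01 to 2.58 CPM in those of the 4 mid-aged animals, while the neocortex sums were at 1.68 to 2.2 CPM and 1.25 to 2.15 CPM. The young and mid-aged cerebella did not overlap, and the neocortical values did. The log2FC between cerebellum and neocortex was smaller in mid-aged animals (log2 difference -3.04 ± 0.26 SE, FDR = 0.00102, edgeR). FYB2, an adaptor protein gene, was at 6.9 to 14.6 CPM in young and 16.1 to 35.9 CPM in mid-aged cerebella, and at 3.26 to 4.59 CPM and 2.04 to 2.71 CPM in the neocortex (log2 difference 1.90 ± 0.24, FDR = 0.0308, edgeR). This call was lost when any 1 animal other than animal 3 was left out (FDR 0.0573 to 0.279, log2 difference 1.76 to 1.97), when the CBC library of animal 4 was left out (FDR 0.0659, 1.99) and when all 5 libraries that stood apart were left out (FDR 0.0773, 2.01). For sex, 1 gene (0.00544%) passed, against 5 with DESeq2 and 1508 at an unadjusted p under 0.05. This gene without a symbol, ENSMMUG00000041468, was at 3.98 to 8.49 CPM in male and 0.0807 to 0.221 CPM in female cerebella, and at 3.59 to 4.63 CPM and 1.43 to 2.47 CPM in the neocortex (log2 difference -4.08 ± 0.40 for female against male, FDR = 0.00411, edgeR). On simulated counts for this design, 75 of 100 genes with a log2 difference of 1.5 and 92 of 100 with 3 were recovered for age, with 10 other genes called of 18248. For sex 79 and 96 of 100 were recovered, with 5 others of 18256. Under an FDR threshold the number of other genes called grows with the number of changed genes. The simulated numbers therefore cannot be set against the genes called here.

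**Figure D5:**
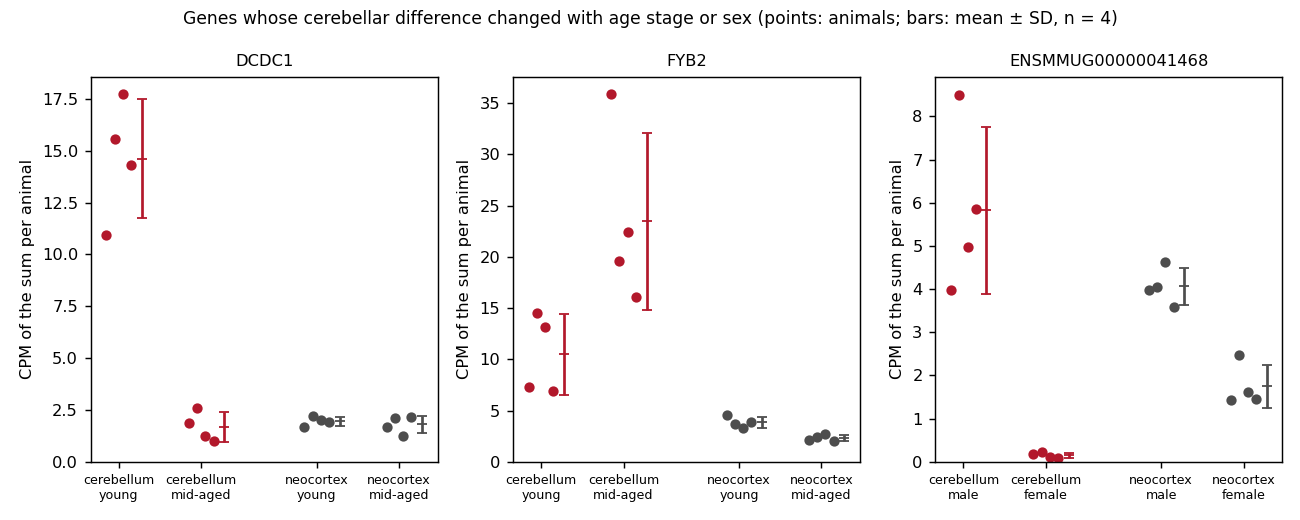
Level of the 3 genes whose difference between cerebellum and neocortex changed with age stage (DCDC1, FYB2) or sex (ENSMMUG00000041468), in CPM of the sum per animal; each point is an animal, red for cerebellum and grey for neocortex, and the bars are mean ± SD of 4 animals. The 4 young cerebella lie above the 4 mid-aged ones for DCDC1, the 4 mid-aged above the 4 young for FYB2, and the 4 male above the 4 female for the third gene.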

How the data were processed

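RNA-seq of dissected brain sub-regions was analysed from the table of raw read counts per gene that the authors deposited. According to the methods and the processing notes, the authors checked reads with FastQC (0.11.4), trimmed samples of poor read quality with Trim Galore (0.4.4), aligned them to the macaque genome Mmul 8.0.1 with HISAT2 (2.0.5) and counted them with HTSeq (0.6.1) on Ensembl 91. The library kit was directional, and the strand setting of the counting is not given in the sources used here, so that overlapping and antisense genes are uncertain. Of 30807 genes, 17572 had a symbol and 2340 shared one. Of 449 labelled samples, 8 midbrain samples and 33 chromatin accessibility samples were not used here.

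Counts were summed within animal and structure, and tested with edgeR 4.0.16 (R 4.3.3, limma 3.58.1): filterByExpr, TMM scaling, and the animal as block, followed by its quasi-likelihood test, with p-values adjusted over all genes after Benjamini and Hochberg (FDR). A gene was called at FDR < 0.05 and an absolute log2FC above 1, and SE is the log2FC divided by the square root of F. With this block, p-values measure how much the difference between the structures within an animal varied over the 8 animals. Same-animal sums deviated together from their group means (r = 0.327 to 0.622 against at most 0.177 for other pairs), and the labels give the animal. Named genes were the 3 markers, in each direction the 10 with the largest log2FC and the 5 with the largest CPM difference among called genes with a symbol, at least 1 CPM and the same direction in all 8 animals, called interaction genes, and members of 32 lists. The members and lists were chosen with earlier results of these data known, and 12 further lists after the fit was seen. Genes with no count in a structure were set at 3 counts over the group, and those with 1 to 3 counts got a ratio with its exact 95% interval, both for counting error only. On simulated counts the comparison with the neocortex recovered 94 of 100 changed genes at a log2 size of 1.5 and 99 of 100 at 3, with 2 other genes called of 18243. The simulation changed 100 genes at each size, as many up as down, and held no difference between animals. In the data 71.5% of genes differed at FDR < 0.05. The simulated counts therefore cannot show how the scaling and the calls behave with so many changed genes. Alternatives were DESeq2 1.42.0, its size factors, no filter, no block, CBC or CBV alone, a scaled neocortex sum and leaving out animals or libraries. Some genes are not reported here. The mitochondrial share was planned and could not be computed, since no mitochondrial gene was matched by symbol. Summaries and exact tests used Python 3.11.15 (scipy 1.17.1, pandas 2.3.3, numpy 2.4.6) and the plots matplotlib 3.10.9.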

Additional observations from a re-analysis of the deposited data

Results flagged for a closer look

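Single animals lay far from the other 7 in the log2 ratio of cerebellum to neocortex for 14 of 162 named genes, by Dixon's test at the 95% level, which flags about 5% of groups by chance. In animal 4, whose CBC library and 3 of whose neocortex libraries stood apart, the ratio was lower than in the others for ENC1 (-6.33 against -5.39 to -4.83), GABRA3 (-2.75 against -1.92 to -1.42), GRM7 (-2.54 against the range from -2.23 to -1.999), CDON (1.01 against 1.97 to 2.51) and SLC4A5 (2.17 against 3.16 to 3.97). In the same animal it was higher for GRIN2C (4.61 against 3.37 to 3.93), GABRD (1.98 against 1.00 to 1.39), GLI1 (3.58 against 1.94 to 2.68) and CDH15 (10.08 against 8.85 to 9.38). In animal 10 SST was at -11.02 against -8.73 to -7.34 and CACNA2D2 at 1.495 against 1.16 to 1.31. CALB2 was at 0.87 in animal 6 against 1.77 to 2.50, NGFR at 3.56 in animal 8 against 4.69 to 5.61, and RGS5 at -0.58 in animal 3 against -1.24 to -0.97. The part that the libraries standing apart have in these values was not tested.

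The difference between the structures depended on age stage for DCDC1, with a log2 difference of -3.04 between mid-aged and young animals. For FYB2 it was 1.90, a call lost without any 1 animal other than animal 3 and without the libraries standing apart. It depended on sex for ENSMMUG00000041468, with a log2 difference of -4.08 between females and males. Each was tested with an interaction term, and the levels are those given with the age and sex comparison.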

How the results depend on the processing

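Counts of genes higher and lower were 1850 and 3024 with DESeq2, 1878 and 3009 with DESeq2's size factors in edgeR, 1779 and 2864 with CBC alone, 1889 and 3168 with CBV alone, and 1526 and 2238 with the neocortex sum scaled to the depth of 2 libraries. Without the filter on low counts they were 2128 and 3745, with a median log2FC of -0.24 over 27814 genes. At an absolute log2FC above 2 they were 609 and 1556. Without the animal as a block they were 1895 and 2937, and no replicate block gave 2222 and 2837 against the hindbrain. The block changed no other call among named genes except TPH2 against the hindbrain, which passed without it (log2FC -1.99), and ENSMMUG00000041468, whose log2FC of 0.0404 without the block reversed a value that passed in neither fit. Leaving out each animal in turn gave 1827 to 1935 higher and 2958 to 3067 lower genes, 1 to 4 genes for the age interaction and 1 to 3 for the sex interaction. DESeq2 called 12 for age and 5 for sex, and 1 gene was called for age without the CBC library of animal 4 or without all 5 libraries standing apart. Without that CBC library the counts were 1891 and 3078, without all 5 they were 1887 and 3053. Of 3446 values of named genes, 3405 kept direction and side of the threshold. A value under the threshold changed sign for SLC32A1 (0.0079) with CBC alone. NTRK2 (-0.82, -0.99) and RGS5 (-0.95, -0.99) lost their call with CBV alone and with the scaled neocortex sum, besides the exclusions given above, and ENSMMUG00000041468 passed with DESeq2 (-1.45). Calls were also lost for TH, CACNB4, VCAN and CSPG4 with CBC alone, for CACNA1G without the filter, and for GABRG3 and CSPG4 without animal 7 or 11, while FOS passed with CBC alone (-1.02). The cause was not tested. Depth limits genes near 0 in the cerebellum, whose folds are given as bounds or ratios with counting intervals.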

Other observations

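Further receptor, channel and adhesion families were listed after the fit had been seen and are therefore given as values only. Beside their counts stand the shares over all genes tested, 10.1% higher and 16.5% lower. Of 4 muscarinic acetylcholine receptors tested, 4 were lower in the cerebellum, and their summed level was 0.618 to 2.23 CPM in the 8 cerebellar sums and 294 to 347 CPM in the 8 neocortex sums. CHRM1 was at 91.2 to 282 CPM (median 136) in the neocortex libraries and 0.0817 to 0.484 CPM (median 0.234) in the cerebellar libraries (log2FC -9.01 ± 0.09), and CHRM3 had log2FC -8.45 ± 0.16. Of 11 serotonin receptors 9 were lower and 1 was higher, namely HTR5A, at 63 to 116 CPM (median 92.4) in the cerebellum and 7.89 to 29.1 CPM (median 15.5) in the neocortex (log2FC 2.51 ± 0.11). HTR3B, a subunit of the serotonin-gated channel, had no cerebellar count and was at least 32.8-fold lower, and HTR3A had 2, a ratio of 516 (143 to 4260). Of 5 dopamine receptors 4 were lower, with DRD1 at 1.14 ± 0.424 CPM in the cerebellum and 58.8 ± 6.04 CPM in the neocortex (log2FC -5.70 ± 0.16), and of 6 adrenergic receptors 5 were lower and 1 higher, the latter ADRA2C (log2FC 1.19 ± 0.14). CNR1, the cannabinoid receptor of presynaptic terminals, was higher at 150.1 ± 30.5 CPM in the cerebellum and 46.5 ± 11.4 CPM in the neocortex (log2FC 1.70 ± 0.09). The exact 95% interval and the bound of 3 counts cover counting error only.

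Adhesion and release genes gave members at both ends. Of 18 cadherins 4 were higher and 8 lower. CDH15, M-cadherin of muscle and of cerebellar granule cells, was at 77.3 to 356 CPM (median 105) in the cerebellum and 0 to 0.773 CPM (median 0.15) in the neocortex (log2FC 9.28 ± 0.14), CDH23, a cadherin of hair cell tip links, at 57.9 to 168 CPM (median 98.6) against 0.108 to 2.43 CPM (median 1.03) (log2FC 6.52 ± 0.19), and CDH9 at 0 to 0.279 CPM (median 0) against 14.3 to 83.8 CPM (median 42.4) (log2FC -9.91 ± 0.22). Of 19 ephrins and Eph receptors 2 were higher, EPHA8 (log2FC 5.02 ± 0.16) and EPHB1 (log2FC 1.70 ± 0.09), and 8 lower, with EPHB6 at 1.33 ± 0.238 CPM in the cerebellum and 242 ± 23.1 CPM in the neocortex (log2FC -7.51 ± 0.10). Of 15 synaptotagmins, the calcium sensors of vesicle release, 3 were higher and 6 lower, and 4 were higher without the 5 libraries that stood apart. SYT2, the sensor of fast hindbrain synapses, was at 94.9 ± 26.6 CPM in the cerebellum and 20.5 ± 10.5 CPM in the neocortex (log2FC 2.31 ± 0.16), whereas SYT1, the main sensor of the forebrain, had log2FC -0.84 ± 0.05, under the fold threshold, and SYT17 was at 4.44 ± 0.767 CPM in the cerebellum and 72.1 ± 13.8 CPM in the neocortex (log2FC -4.01 ± 0.11). Of 9 sodium channel genes 1 was higher and 4 lower. The higher one, SCN4A, was at low levels, with means of 0.517 CPM in the CBC and 0.127 CPM in the CBV libraries. SCN3B, a beta subunit, was at 3.33 ± 1.6 CPM in the cerebellum and 77.2 ± 17 CPM in the neocortex (log2FC -4.60 ± 0.12). Of 10 adenylyl cyclases 0 were higher and 2 lower, of 5 opioid receptors and precursors 0 and 2, of 6 genes of the cannabinoid system 1 and 1, and of 2 HCN channel genes 0 and 0.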
